A study of Mus musculus with 12 samples.

Results

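The dystrophin-glycoprotein complex was followed through its 8 listed genes, Dmd, Utrn, Sgca, Sgcb, Sgcd, Dag1, Dtna and Sspn, which were taken by symbol from the 55416 genes of the count table. Of them 7 were among the 13250 genes with enough counts to be tested. The RNA came from C2C12, an established line of mouse myoblasts that form multinucleated myotubes under low serum. All 12 libraries came from cells kept for 5 days in differentiation medium (DM, 2% horse serum) or growth medium (GM, 10% fetal bovine serum), and all share 1 batch date in the labels. The groups were Mapk14-/- knockout cells in DM (KO DM), Mapk14 knockout cells in GM (KO GM), wild-type cells in DM (WT DM) and wild-type cells in GM (WT GM), with 3 biological replicates each. How the knockout was made, and in how many clones, was not stated in the labels. Differences between genotypes therefore cannot be told apart from differences between clones of the line.

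The complex spans the muscle cell membrane and ties the actin cytoskeleton to the basement membrane. Dystrophin binds actin inside the cell, dystroglycan holds dystrophin at the membrane and binds laminin outside it, and the sarcoglycans and sarcospan brace that link. Dystrobrevin and the syntrophins form a signalling scaffold beneath the membrane. Loss of dystrophin causes Duchenne muscular dystrophy, and loss of sarcoglycans causes limb-girdle muscular dystrophies. Utrophin, the autosomal relative of dystrophin, can occupy a similar place and in adult muscle is concentrated at the neuromuscular junction.

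Totals were 8821669 to 11536396 counts per library. Levels are CPM, the usual depth-scaled read count, on library sizes adjusted by TMM (a trimmed mean of log ratios between libraries), and the limit that a count of 0 allows (3 counts) was 0.26 to 0.34 CPM in single libraries. Changes are log2 fold changes ± SE by edgeR's quasi-likelihood test, and a gene was called where its adjusted p over 13250 tested genes was below 0.05. The targeted gene, Mapk14, was not called lower under the knockout label. It had 93.8, 90 and 84.5 CPM in KO DM against 93.9, 91.2 and 88.7 CPM in WT DM, and 130, 136 and 137 CPM in KO GM against 130, 135 and 108 CPM in WT GM. The changes were -0.03 ± 0.08 in DM (adjusted p = 0.822) and 0.11 ± 0.08 in GM (adjusted p = 0.35). How the knockout was made was not stated, so counts per gene could not check the label either way. The cells are therefore called KO-labelled throughout. Muscle lineage markers (Myod1, Myf5, Myog, Des, Cdh15, Chrna1, Myh3, Acta1) were all detected in each group, and their summed level in KO DM was 3142 to 3606 CPM, in KO GM 547 to 815 CPM, in WT DM 7249 to 7416 CPM, and in WT GM 2032 to 2648 CPM. That sum was higher in DM than in GM in both genotypes, and lower under the knockout label in both media. Its part in the changes of the genes below was not tested. Replicate 3 of both GM groups stood apart from its group: chi-square per degree of freedom between libraries of a group was 9.9 to 14.9 for pairs with it, against 3.58 to 6.44 for all other pairs. Myog had 45.9 CPM in KO GM replicate 3 against 31.4 and 16.8 CPM in the other KO GM libraries, and 220 CPM in WT GM replicate 3 against 127 and 143 CPM. In bulk RNA, fewer differentiated cells and less RNA per cell cannot be told apart. Of the other lineages, Ptprc, Adgre1, Tyrobp, Epcam, Sox10 and Rbfox3 had 0 counts in all libraries, and 5 endothelial markers summed to at most 0.798 CPM. Epithelial markers, mainly Krt14, summed in KO DM to 13.4 to 14.4 CPM, in KO GM to 2.34 to 4.43 CPM, in WT DM to 1.73 to 4.6 CPM and in WT GM to 0.898 to 1.85 CPM, and the macrophage and leukocyte list to 16.2 to 20.9, 13.6 to 14.5, 12 to 14.1 and 11.2 to 14.1 CPM in the same groups.

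Dmd itself, the gene of dystrophin, was barely detected in these libraries. It had 0, 0 and 0 counts in KO DM, 0, 0 and 1 in KO GM, 3, 2 and 2 in WT DM and 0, 0 and 0 in WT GM, a total of 8 counts over 12 libraries. Each library held at most 3 counts, so no fold change is given, and Dmd was the only member that did not pass the low-count filter. Without the filter, edgeR gave adjusted p = 0.0929 for KO DM against WT DM and 0.0998 for WT DM against WT GM. The counts are per gene, so full-length dystrophin and the short products of the same gene could not be separated. In the GENCODE M21 annotation 5 small genes or pseudogenes lie within Dmd and share no exon with it, and the 3 of them in the table had 0 counts.

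Utrophin RNA was abundant where dystrophin RNA was not. Utrn had 110, 131 and 127 CPM in KO DM, 106, 121 and 131 CPM in KO GM, 139, 166 and 151 CPM in WT DM and 123, 129 and 138 CPM in WT GM. The WT DM libraries were the highest and did not overlap those of KO DM, while the KO DM and KO GM libraries overlapped. Drp2, a further dystrophin relative known from the Schwann cell membrane, had 79.4 ± 4.63 CPM in KO DM, 86.2 ± 4.59 in KO GM, 103 ± 4.13 in WT DM and 82.5 ± 9.24 in WT GM (SD, n = 3 each). Per kilobase of annotated exon Drp2 stood at 9.28, 10.1, 12 and 9.64 CPM per kb in these groups and Utrn at 7.17, 6.98, 8.89 and 7.61. The Schwann cell markers Sox10 and S100b had 0 counts and 1 count over all libraries.

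**Figure D1:**
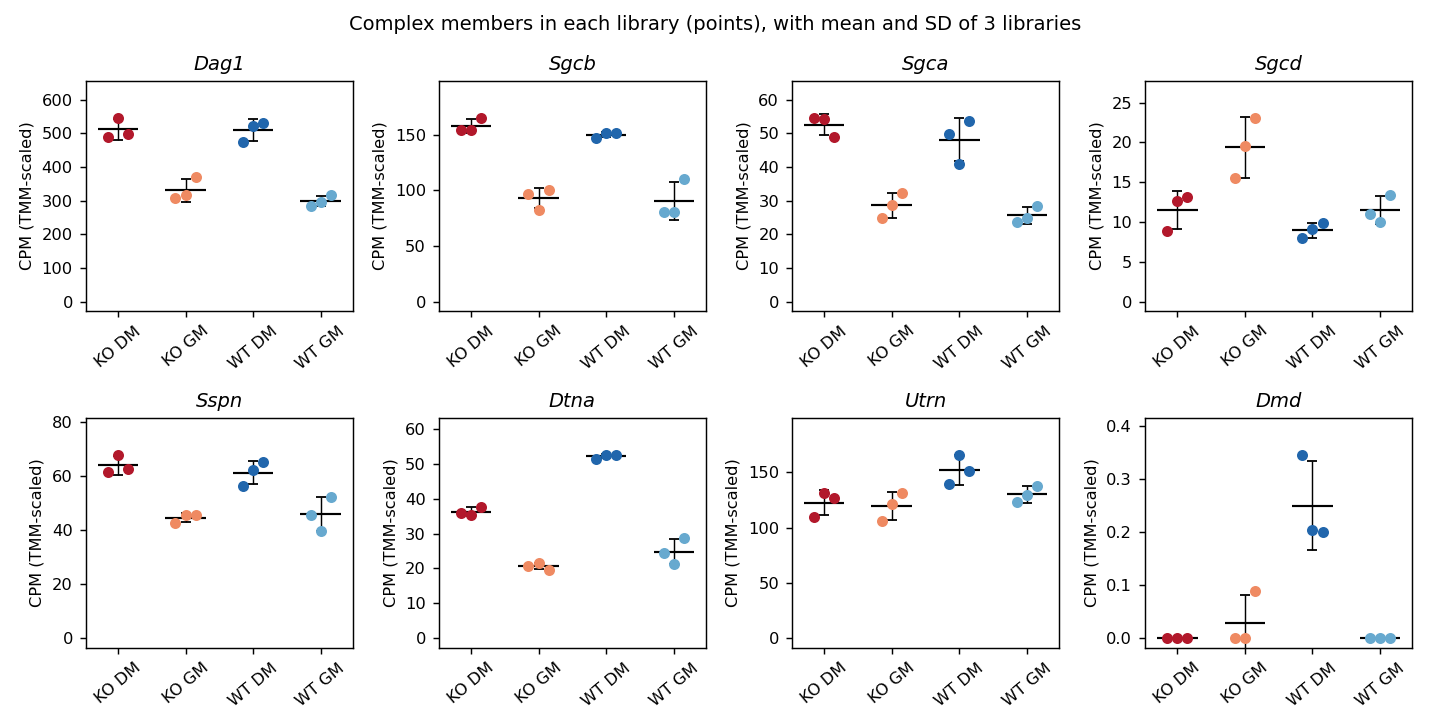
TMM-scaled CPM of the 8 members in each library (points, 3 per group), with the mean (line) and SD (bars); every panel has its own linear axis that includes 0. Dag1, Sgcb, Sgca, Sspn and Dtna lie higher in both DM groups than in the GM groups, Sgcd is highest in KO GM at 15.5 to 23.1 CPM, and Dmd stays at or below 0.346 CPM.

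In all, 5 members of the membrane and scaffold parts were higher in DM in both genotypes, and Sgcd was lower in DM than in GM in KO-labelled cells. Dag1, which encodes both dystroglycan subunits, was the most abundant member. It had 489, 546 and 499 CPM in KO DM against 307, 316 and 370 CPM in KO GM, and 473, 523 and 532 CPM in WT DM against 285, 295 and 316 CPM in WT GM. Every DM library lay above every GM library of either genotype. Dag1 rose by 0.63 ± 0.08 in KO-labelled cells (adjusted p = 1.76e-06) and by 0.77 ± 0.08 in WT cells (adjusted p = 1.26e-07).

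Promoters of 3 members that rose together and of Sgcd, which did not, are shown so that the sequence at their starts can be set beside the responses. They are RefSeq windows of 300 bases, 250 before to 50 after the annotated start, on GRCm38.p6, all on the minus strand and written 5′ to 3′ along the gene. Sgca lies at chr11:94976278-94976577, Sgcb at chr5:73647688-73647987, Dag1 (the first of 2 entries) at chr9:108263909-108264208 and Sgcd at chr11:47379276-47379575. Capitals mark E-boxes, the letters CANNTG (the same on both strands), which myogenic bHLH factors such as MyoD and myogenin can bind.
Sgca: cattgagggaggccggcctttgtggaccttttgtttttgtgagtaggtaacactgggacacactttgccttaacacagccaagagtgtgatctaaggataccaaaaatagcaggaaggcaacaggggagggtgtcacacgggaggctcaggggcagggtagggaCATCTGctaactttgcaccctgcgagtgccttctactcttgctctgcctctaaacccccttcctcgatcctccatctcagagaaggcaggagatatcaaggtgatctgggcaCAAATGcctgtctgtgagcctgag
Sgcb: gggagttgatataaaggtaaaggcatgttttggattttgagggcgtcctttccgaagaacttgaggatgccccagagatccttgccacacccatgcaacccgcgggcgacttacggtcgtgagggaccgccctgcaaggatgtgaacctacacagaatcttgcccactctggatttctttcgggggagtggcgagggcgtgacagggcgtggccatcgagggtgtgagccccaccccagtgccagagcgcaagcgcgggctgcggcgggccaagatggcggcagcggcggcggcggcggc
Dag1: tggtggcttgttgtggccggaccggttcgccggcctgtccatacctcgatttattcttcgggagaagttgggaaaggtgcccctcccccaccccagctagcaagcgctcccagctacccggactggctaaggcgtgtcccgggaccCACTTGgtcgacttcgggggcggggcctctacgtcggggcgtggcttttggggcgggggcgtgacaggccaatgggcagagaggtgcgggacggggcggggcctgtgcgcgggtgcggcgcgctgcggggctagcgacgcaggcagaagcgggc
Sgcd: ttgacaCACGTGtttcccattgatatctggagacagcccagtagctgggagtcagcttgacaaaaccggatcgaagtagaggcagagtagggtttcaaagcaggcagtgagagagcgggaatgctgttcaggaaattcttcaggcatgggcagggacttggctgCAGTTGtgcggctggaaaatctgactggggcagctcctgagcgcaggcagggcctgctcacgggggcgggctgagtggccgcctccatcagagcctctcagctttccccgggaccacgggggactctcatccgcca
E-box letters occurred 2 times in the Sgca window, 0 times in that of Sgcb, 1 time in that of Dag1 and 2 times in that of Sgcd, and 72.3% of all 32851 RefSeq promoter windows of this length hold at least 1. The forms CAGCTG (in 16.3% of all windows) and CACCTG (in 20.2%, either strand), which are included in CANNTG, were in none of the 10 windows listed for 7 members. These members were Dmd, Utrn, Sgca, Sgcb, Sgcd, Dag1 and Sspn, and Dtna had no window listed. GC content was 52.7% for Sgca, 62.7% for Sgcb, 69.7% for Dag1 and 59% for Sgcd. A match to these letters is a description of the window and not evidence of binding.

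The sarcoglycans are single-pass membrane proteins that assemble as a unit. Sgca, the muscle-restricted alpha subunit, had 54.6, 54.3 and 48.9 CPM in KO DM against 24.9, 28.7 and 32.4 CPM in KO GM. In WT cells it had 49.7, 41 and 53.6 CPM in DM against 23.7, 24.8 and 28.5 CPM in GM. All DM libraries were above all GM libraries, and the DM libraries of the genotypes overlapped. The rise was 0.87 ± 0.11 in KO-labelled cells (adjusted p = 1.84e-06) and 0.90 ± 0.12 in WT cells (adjusted p = 2.08e-06).

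Sgcb, the beta subunit, which is also made outside muscle, had 154, 154 and 165 CPM in KO DM against 96.5, 82.5 and 100 CPM in KO GM. In WT cells the values were 147, 151 and 151 CPM in DM against 80.2, 80.8 and 110 CPM in GM. The groups did not overlap between media, and WT GM replicate 3 stood above the other WT GM libraries. Sgcb rose by 0.76 ± 0.10 (adjusted p = 4.58e-06) and 0.73 ± 0.10 (adjusted p = 1.08e-05) in KO-labelled and WT cells.

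Sgcd, the delta subunit, fell in DM in KO-labelled cells. It had 8.82, 12.6 and 13.1 CPM in KO DM against 15.5, 19.6 and 23.1 CPM in KO GM, and 7.95, 9.09 and 9.88 CPM in WT DM against 11, 9.99 and 13.4 CPM in WT GM. The KO GM libraries were the highest of all 12, and DM and GM did not overlap in either genotype. The fall was -0.75 ± 0.17 in KO-labelled cells (adjusted p = 0.00117), while in WT cells the change of -0.35 ± 0.19 was not called (adjusted p = 0.158).

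Sspn encodes sarcospan, a small protein with several membrane spans that binds the sarcoglycans. It had 61.5, 68.1 and 62.8 CPM in KO DM against 42.8, 45.7 and 45.8 CPM in KO GM, and 56.6, 62.4 and 65.2 CPM in WT DM against 45.8, 39.7 and 52.4 CPM in WT GM. No DM library overlapped a GM library. The rises of 0.52 ± 0.09 (adjusted p = 0.000128) and 0.42 ± 0.10 (adjusted p = 0.00157) in KO-labelled and WT cells were the smallest among the 5 members that rose.

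Dtna encodes alpha-dystrobrevin, a cytoplasmic dystrophin relative that carries syntrophins. It had 35.8, 35.2 and 37.7 CPM in KO DM against 20.8, 21.5 and 19.7 CPM in KO GM, and 51.4, 52.4 and 52.6 CPM in WT DM against 24.3, 21.4 and 28.6 CPM in WT GM. The 3 WT DM libraries stood clear of every other library, and the KO DM libraries lay between them and the GM libraries. Dtna rose by 0.81 ± 0.10 in KO-labelled cells (adjusted p = 1.64e-06) and by 1.07 ± 0.10 in WT cells (adjusted p = 2.72e-08).

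In KO DM against KO GM, 5 of the 7 tested members rose and 1 fell, where 20.8% of all tested genes rose and 19.8% fell (40.6% called in either direction). The libraries of the media did not overlap for 6 of the 7, as for 50.7% of all genes. The members' median change was 0.63 against 0.00 for all genes tested. In WT DM against WT GM, 5 of 7 rose, where 18.4% of all genes rose, 14.8% fell and 33.2% were called in either direction. The libraries did not overlap for 7 of 7, as for 44.3% of all genes, and the median was 0.73 against -0.01. Utrn was not called in either, at 0.04 ± 0.09 in KO-labelled cells (adjusted p = 0.778) and 0.22 ± 0.09 in WT cells (adjusted p = 0.0548). Leaving out single libraries in turn gave a call for Utrn in WT cells without WT GM replicate 3 (adjusted p = 0.0296), WT DM replicate 1 (0.0405), KO GM replicate 1 (0.0493) or KO GM replicate 3 (0.0487), and the range over all alternatives was 0.00928 to 0.292.

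The response to DM was then compared between genotypes by the interaction, the change in KO-labelled cells minus the change in WT cells. By edgeR 0 of 7 members were called, 0 of 7 had an unadjusted p below 0.05, and DESeq2 and limma-voom called 0 of 7 too, where edgeR called 8.86% of all genes, 3.61% higher and 5.25% lower. The difference was -0.03 ± 0.16 for Sgca, 0.03 ± 0.14 for Sgcb, -0.14 ± 0.11 for Dag1 and 0.10 ± 0.13 for Sspn. It was -0.26 ± 0.15 for Dtna (adjusted p = 0.288), -0.40 ± 0.25 for Sgcd (adjusted p = 0.359) and -0.19 ± 0.13 for Utrn (adjusted p = 0.391). These errors leave room for sizeable differences in Sgcd, and a missed threshold does not show equal responses.

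**Figure D2:**
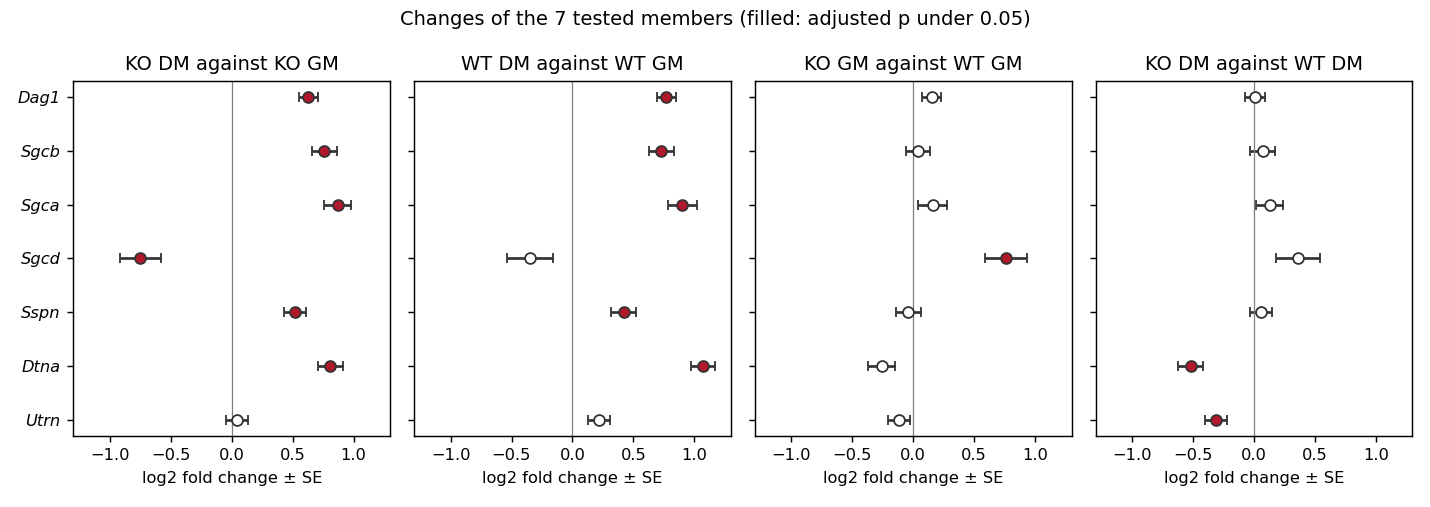
Log2 fold changes (points) with SE (bars) of the 7 tested members in 4 comparisons, filled where the adjusted p is below 0.05. In both DM against GM panels 5 filled points (Sgca, Sgcb, Dag1, Dtna and Sspn) and the open point of Utrn lie to the right of 0, Sgcd lies to the left, and the KO GM against WT GM panel has 1 filled point, Sgcd at 0.76.

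Between genotypes in GM, Sgcd was the member that differed. It rose by 0.76 ± 0.17 in KO GM against WT GM (adjusted p = 0.0026), and the 2 groups did not overlap. This was 1 of 7 tested members, where 20.7% of all genes were called (10.0% higher, 10.6% lower) and 32.3% had groups that did not overlap. Sgca (0.16 ± 0.12), Sgcb (0.04 ± 0.10), Dag1 (0.15 ± 0.08), Sspn (-0.04 ± 0.10), Dtna (-0.26 ± 0.11) and Utrn (-0.12 ± 0.09) were not called, and their libraries overlapped. Without WT GM replicate 2 the Dtna change was also called (adjusted p = 0.0319; range over alternatives 0.0319 to 0.541), which made 2 called members.

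In DM, Dtna and Utrn were lower in the KO-labelled cells. Dtna fell by 0.52 on the log2 scale (SE 0.10, adjusted p = 0.000245) and Utrn fell by 0.31 (SE 0.09, adjusted p = 0.00952), with no overlap of libraries for either. These were 2 of 7 members, where 31.0% of all genes were called (13.6% higher, 17.4% lower). With Sgcb, 3 of 7 members had groups that did not overlap, as had 47.5% of all genes. The Utrn call ended without KO DM replicate 1 (adjusted p = 0.108) or WT DM replicate 2 (adjusted p = 0.0913; range over alternatives 0.000861 to 0.108). Dag1 at 0.01 ± 0.08, Sspn at 0.06 ± 0.09, Sgcb at 0.07 ± 0.10, Sgca at 0.13 ± 0.11 and Sgcd at 0.36 ± 0.18 were not called, although Sgcd was without KO DM replicate 1 (adjusted p = 0.0417; range 0.0417 to 0.386). Without replicate 3 of both GM groups all 14 calls of members held: 5 members rose in DM by 0.56 to 0.99 in KO-labelled cells and by 0.52 to 1.19 in WT cells, Sgcd was at -0.59 in KO DM against KO GM and 0.74 in KO GM against WT GM, and Dtna and Utrn were at -0.51 and -0.29 in KO DM against WT DM. Utrn in WT DM against WT GM was then called too (0.26 ± 0.08, adjusted p = 0.00928). The 4 comparisons share groups pairwise, so their changes are not independent of each other.

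Read across the 4 groups, the members' levels had different orders. Dag1, Sgca, Sgcb and Sspn had both DM groups above both GM groups, and no called difference between genotypes in either medium. Dtna ran from WT DM through KO DM to the GM groups, which overlapped. Sgcd was highest in KO GM and lowest in WT DM, where its libraries overlapped those of KO DM. Utrn was highest in WT DM, and its libraries in the other groups overlapped.

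Further sarcoglycans and syntrophins complete the complex beside the 8 members. Sgce, the widely expressed epsilon relative of Sgca, fell by 1.17 in KO GM against WT GM (SE 0.14, adjusted p = 1.31e-06) and by 1.01 in KO DM against WT DM (SE 0.14, adjusted p = 5.45e-06). It had 18.7 ± 3.88 CPM in KO DM, 17.6 ± 1.16 in KO GM, 37.5 ± 3.9 in WT DM and 39.5 ± 5.77 in WT GM, with no call between media. Sgcz, the zeta subunit, had 0 counts in all libraries.

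Per kilobase of annotated exon, Sgca, Sgcb, Sgcd and Sgce together gave 72.3 ± 0.421 CPM per kb in KO DM, 43.5 ± 3.89 in KO GM, 69.3 ± 3.79 in WT DM and 42.2 ± 6.43 in WT GM (SD, n = 3 each). Sgcb and Sgca made up most of it in every group, with Sgcb at 53.7 ± 2.01%, 52.9 ± 3.92%, 53.4 ± 3.03% and 52.7 ± 1.9% of the sum in that order of groups. The share of Sgcd was 1.92 ± 0.383% in KO DM, 5.37 ± 0.753% in KO GM, 1.57 ± 0.151% in WT DM and 3.29 ± 0.192% in WT GM. Sgce held 2.43 ± 0.495%, 3.81 ± 0.238%, 5.11 ± 0.522% and 8.83 ± 0.0592% in the same groups, and on these lengths Sgcd lay below Sgce in both WT groups. The shares depend on the annotated lengths, which came from a GRCm38 annotation. Per kilobase of the longest transcript, Sgcd held 3.27%, 8.74%, 2.58% and 5.12% and Sgce 5.34%, 8.05%, 10.9% and 17.8% in the same groups, so Sgcd was again below Sgce in both WT groups, while no order is read in KO GM.

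**Figure D3:**
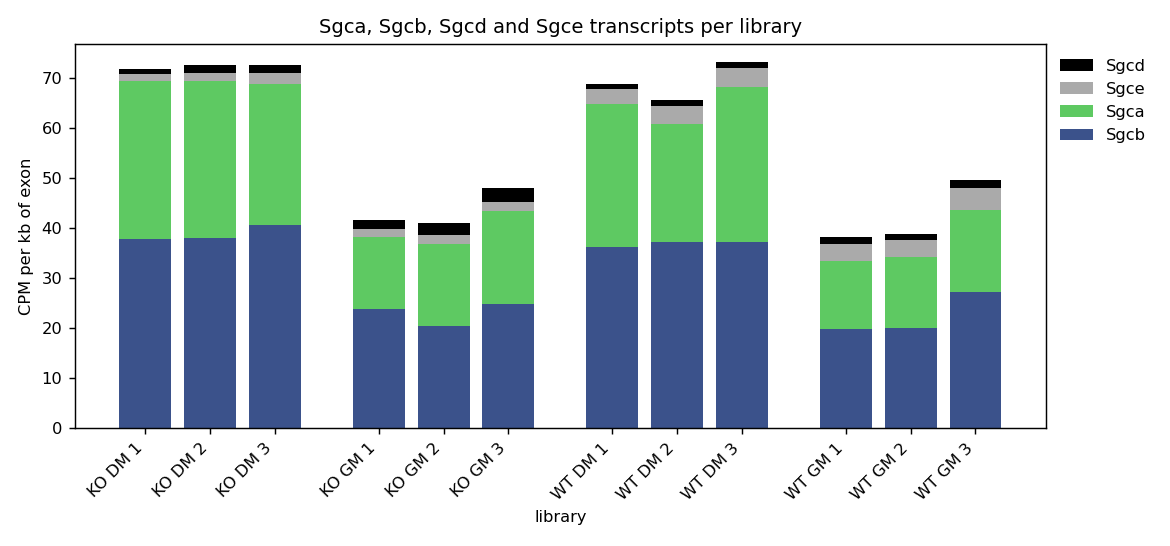
Sgca, Sgcb, Sgcd and Sgce transcripts in each of the 12 libraries, stacked as CPM per kb of annotated exon (bars start at 0). The sums average 72.3 in KO DM and 43.5 in KO GM, and 69.3 in WT DM and 42.2 in WT GM, and Sgcb and Sgca fill most of every bar.

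Among the syntrophins, adaptor proteins that bind dystrophin and dystrobrevin, Sntb1 changed in every comparison of 2 groups. It had 13.5, 12.8 and 10.6 CPM in KO DM against 1.4, 1.13 and 3.1 CPM in KO GM, and 49.7, 59 and 54.8 CPM in WT DM against 9.67, 15.2 and 19.9 CPM in WT GM. Sntb1 rose in DM by 2.69 ± 0.34 in KO-labelled cells (adjusted p = 3.2e-05) and by 1.87 ± 0.23 in WT cells (adjusted p = 3.25e-05). Under the knockout label it fell by 2.97 in GM (SE 0.33, adjusted p = 3.18e-05) and by 2.15 in DM (SE 0.23, adjusted p = 1.31e-05). Sntb2 fell in WT DM by 0.38 (SE 0.09, adjusted p = 0.00167). Of the 9 further core genes listed 5 were tested. In KO DM against KO GM 1 rose (Sntb1), in WT DM against WT GM 2 rose (Sntb1 and Drp2) and 1 fell (Sntb2), in KO GM against WT GM 2 fell (Sntb1 and Sgce), and in KO DM against WT DM 3 fell (Sntb1, Sgce and Drp2). The shares of all genes called in either direction were 40.6%, 33.2%, 20.7% and 31.0% in the same order. Nos1, the neuronal nitric oxide synthase that syntrophin anchors in muscle, was not tested, with a sum of 36 counts, like Sgcz, Sntg1 and Sntg2.

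The extracellular ligands of dystroglycan changed in both directions. Lama2, the laminin alpha chain of muscle basement membrane, had 20.9, 26.1 and 25.2 CPM in KO DM against 15.5, 19.4 and 19.6 CPM in KO GM, and 42.7, 49.1 and 41.4 CPM in WT DM against 22.1, 26 and 24.6 CPM in WT GM. It rose in DM by 0.40 ± 0.12 (adjusted p = 0.0115) and 0.88 ± 0.12 (adjusted p = 3.53e-06) in KO-labelled and WT cells, and fell under the knockout label in DM by 0.88 (SE 0.12, adjusted p = 3.5e-06). In GM the fall of 0.41 (SE 0.12, adjusted p = 0.0201) was not called without KO GM replicate 1 (adjusted p = 0.106) or WT GM replicate 2 (0.0889; highest over alternatives 0.106). Lama1, an alpha chain best known from embryonic basement membranes, rose in DM by 2.74 ± 0.45 in KO-labelled cells (adjusted p = 4.8e-05) and 1.90 ± 0.38 in WT cells (adjusted p = 0.000486), from low levels in GM. It averaged 4.18 ± 0.384 CPM in KO DM, 0.587 ± 0.623 in KO GM, 6.28 ± 1.53 in WT DM and 1.68 ± 0.301 in WT GM. Lama5, a widely expressed alpha chain, fell under the label by 0.75 in GM (SE 0.10, adjusted p = 1.21e-05) and by 0.44 in DM (SE 0.10, adjusted p = 0.00185). Lamb1, a laminin beta chain, fell in DM by 0.76 (SE 0.10) in KO-labelled cells and by 0.84 (SE 0.10) in WT cells, and Lamc1, the common gamma chain, fell by 0.33 and 0.43 (SE 0.09 each). Under the label Lamc1 fell in GM by 0.31 (SE 0.09, adjusted p = 0.021), a call lost without any 1 of KO GM replicates 1 and 2 and WT GM replicates 2 and 3 (adjusted p = 0.0583 to 0.119). Bgn, which encodes the proteoglycan biglycan, rose in DM by 0.80 ± 0.09 and 0.59 ± 0.09, and in KO DM against WT DM by 0.41 ± 0.09 (adjusted p = 0.00096). Lamb2, the beta chain of the synaptic basement membrane, rose in KO DM against WT DM by 0.76 ± 0.08 (adjusted p = 2.05e-07), at 238 ± 4.03 and 141 ± 7.98 CPM. All 10 ligand genes were tested. In KO DM against KO GM 7 rose and 2 fell, in WT DM against WT GM 5 rose and 2 fell, in KO DM against WT DM 2 rose and 3 fell, and in KO GM against WT GM 1 rose and 4 fell, beside 40.6%, 33.2%, 31.0% and 20.7% of all genes called. Fitted on the contrasted libraries alone, KO DM against WT DM had 3 higher and 6 lower, and KO GM against WT GM 0 higher and 3 lower. The last count was 2 in all without WT GM replicate 2, 3 without KO GM replicate 1 or 2, and 8 without both GM replicate 3 libraries.

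The enzymes that build the laminin-binding glycan of dystroglycan had calls in each comparison of 2 groups. With TMM scaling and all libraries, the share of them called was in no comparison above that of all genes. Pomk, the kinase that phosphorylates its core mannose, rose under the knockout label by 0.49 ± 0.10 in GM (adjusted p = 0.00101) and by 0.54 ± 0.10 in DM (adjusted p = 0.000208). Pomgnt2, which extends that mannose, rose by 0.86 ± 0.16 in DM (adjusted p = 0.000189). Pomt1, a subunit of the enzyme that adds the first mannose, rose by 0.37 ± 0.13 in DM (adjusted p = 0.041), a call lost without KO DM replicate 1 or 2 or WT DM replicate 1 or 2 and by limma-voom (adjusted p up to 0.115). Of 14 listed enzymes 13 were tested, and Large2 had 11 counts in all. In KO DM against WT DM 3 rose (31.0% of all genes called), and in KO GM against WT GM 1 rose and 1 fell (20.7% of all genes), or 1 and 3 on library totals alone. The one that fell, Pomgnt1, by 0.22 (SE 0.08, adjusted p = 0.0496), lost its call in 17 of 23 alternatives (adjusted p up to 0.159), DESeq2 and limma-voom included. In WT DM against WT GM 4 fell (33.2% of all genes called), Dpm2 (-0.42 ± 0.10, adjusted p = 0.00239), Pomt2 (-0.35 ± 0.10, adjusted p = 0.0106), B3galnt2 (-0.34 ± 0.09, adjusted p = 0.00484) and Rxylt1 (-0.31 ± 0.11, adjusted p = 0.0264). Pomt2 was not called without WT DM replicate 3 (adjusted p = 0.0728), and Rxylt1 was not called without WT DM replicate 1 or 2 or WT GM replicate 1 or 3 (adjusted p = 0.0553 to 0.104). In KO DM against KO GM, where 40.6% of all genes were called, 1 fell, B3galnt2 by 0.53 (SE 0.09, adjusted p = 4.67e-05), and without KO GM replicate 3 or WT GM replicate 3 the counts were 1 higher and 1 lower.

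The membrane partners are the proteins that sit beside the complex or anchor it. Cav3, the muscle caveolin, had 17.1, 14.2 and 12.7 CPM in KO DM against 1.07, 0.347 and 1.77 CPM in KO GM, and 32.7, 29 and 30 CPM in WT DM against 1.65, 2.47 and 3.79 CPM in WT GM. It rose in DM by 3.78 ± 0.31 (adjusted p = 1.38e-08) and 3.52 ± 0.26 (adjusted p = 4.4e-09), and fell under the knockout label in DM by 1.06 (SE 0.21, adjusted p = 0.000575). The fall in GM of 1.31 (SE 0.39, adjusted p = 0.0227) was lost without any 1 of KO GM replicates 1 and 2 and WT GM replicates 2 and 3 (adjusted p = 0.0508 to 0.104), and came to -0.87 without KO GM replicate 2. Dysf, which encodes the membrane repair protein dysferlin, had 27 ± 1.11 CPM in KO DM against 79.5 ± 2.34 in WT DM, a fall of 1.56 (SE 0.11, adjusted p = 4.22e-10), and fell by 1.96 in KO GM against WT GM (SE 0.14, adjusted p = 8.8e-10). Itga7, the alpha subunit of the other laminin receptor of muscle, rose in DM by 1.23 ± 0.08 and 1.44 ± 0.08 and fell under the label by 0.84 in DM and 0.64 in GM (SE 0.08 each). Ank3, an ankyrin, fell in DM by 0.90 and 0.73 (SE 0.10 each). Ank2, another ankyrin, fell in KO DM against WT DM by 0.55 (SE 0.18, adjusted p = 0.021), but was not called without KO DM replicate 2 or 3 or WT DM replicate 2, where it came to -0.36 (adjusted p = 0.18). All 7 partners were tested, of which 3 rose and 2 fell in KO DM against KO GM, 4 rose and 1 fell in WT DM against WT GM, 2 rose and 3 fell in KO GM against WT GM, and 1 rose and 5 fell in KO DM against WT DM, beside 40.6%, 33.2%, 20.7% and 31.0% of all genes called. In KO GM against WT GM, 3 were called in all without WT GM replicate 2 or with the contrasted libraries alone.

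**Figure D4:**
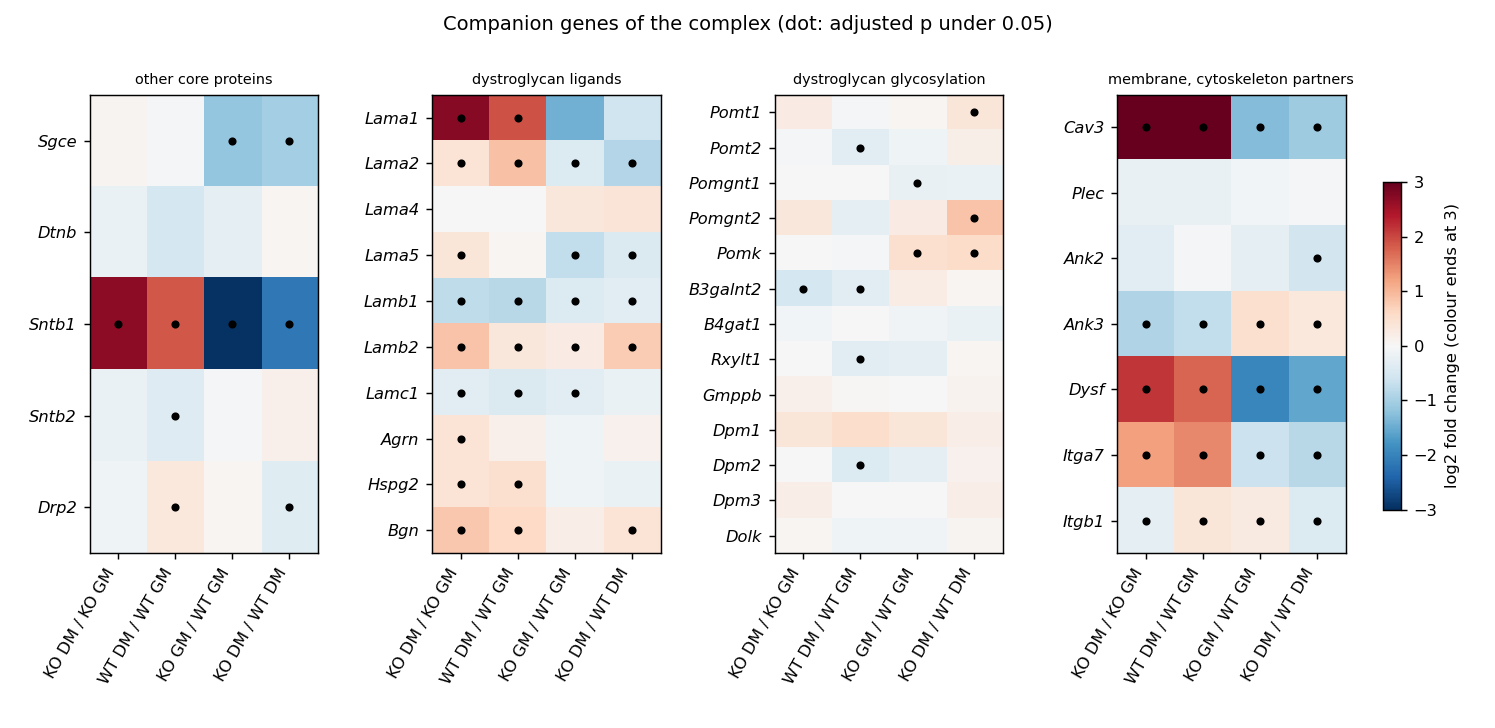
Log2 fold changes of the tested companion genes in 4 comparisons (colour, red higher and blue lower, ending at 3 in either direction), with a dot where the adjusted p is below 0.05. Sntb1, Cav3 and Dysf are red in both DM against GM columns and blue in both KO against WT columns.

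The genes with the most similar pattern over the 12 libraries were listed as a description, by Pearson's r of log2 CPM. These libraries fall into 4 groups, so r mostly reflects differences between groups. For Sgca they were Ephb3 (0.991), Igfbp7 (0.982) and Porcn (0.982), and for Dag1 Map4 (0.988), Lrch1 (0.985) and Cenpe (0.982). Sgcb was closest to Ogn (0.989), Kif11 (0.987) and Acsl3 (0.987), and Sspn to Aurka (0.983), Kif11 (0.974) and Gtse1 (0.974). Kif11, Aurka, Gtse1 and Cenpe are genes of mitosis. Their r is positive, so they followed members that were higher in DM, and mitosis as a theme was not tested. Dtna lay nearest to Fabp3 (0.991), the heart and muscle fatty acid binding protein gene, then Stau2 (0.988) and BC051019 (0.986). For Sgcd the values were lower, with Slc25a36 (0.923), Vldlr (0.922) and Alkbh5 (0.918), and likewise for Utrn with Opa1 (0.928), Zfp280b (0.927) and Ppm1e (0.924). Between members, r was 0.81 to 0.96 among Sgca, Sgcb, Dag1, Dtna and Sspn, and negative between Sgcd and each of the other tested members.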

How the data were processed

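The authors deposited 1 table of raw whole-number counts per Ensembl gene for 12 libraries, with no normalization, per the file's values. The submitters' processing notes name GRCm39, RSEM 1.3.3, STAR 2.7.1a, DESeq2 1.40.2 and R 4.3.1, without roles; the counting step, strand setting and annotation release were not stated there. The table's 4 empty columns were not used. Symbols were matched for 52083 of 55416 genes.

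The analysis used edgeR 4.0.16 (R 4.3.3): filterByExpr (13250 genes, 99.9% of counts), TMM scaling, and 1 robust quasi-likelihood fit of all libraries with a mean per group, tested on 5 contrasts, 2-sided, with Benjamini-Hochberg adjustment over all tested genes. The fit was tested on simulated data. Alternatives were other scalings, DESeq2 1.42.0, limma-voom (limma 3.58.1), other filters, dispersion without robust estimation, fits of the contrasted libraries alone, a replicate block and leaving out libraries. P-values measure the spread between libraries labelled as biological replicates, which differed by more than sampling noise. Lengths (exon union) and overlapping genes came from GENCODE M21 on GRCm38; only Dtna and Sspn share exons with an opposite-strand gene, with 1 and 0 counts.

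Members and companion lists were chosen with earlier results of these data known. Besides the 8 members, companions were named by a rule: up to 4 called genes of each list and comparison with at least 1 CPM, by size of change, and for each tested member the 3 genes of highest correlation; untested companions were named after their counts were seen. Shares within gene families, and the promoters shown, were chosen after the values were seen. The CPM limits given for genes without counts cover counting error only. The SD and SE values include the spread between libraries of a group. Some companion genes are not reported here and were left out of all lists, sums and counts of companions.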

Additional observations from a re-analysis of the deposited data

Results flagged for a closer look

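The response to DM differed between KO-labelled and WT cells in 3 companion genes by edgeR's interaction test, and in 0 of 7 tested members. Among tested companions these were 1 of 5 further core genes, 1 of 10 ligands and 1 of 7 partners, with 0 of 13 enzymes. Beside them 8.86% of all genes were called, so the companions together were near that share. Among the marker genes, Myod1 (0.64 ± 0.12, adjusted p = 0.00246), Des (0.52 ± 0.14, 0.0209), Cdh15 (0.40 ± 0.11, 0.0335) and Lyz2 (1.27 ± 0.38, 0.0389) were called as well. Itgb1, the shared beta subunit of laminin-binding integrins, fell in KO DM against KO GM (936 ± 24.1 and 1152 ± 19.5 CPM) and rose in WT DM against WT GM (1251 ± 32.2 and 965 ± 94.7 CPM), an interaction of -0.67 ± 0.10 (adjusted p = 0.000208). For Lamb2 the interaction was 0.51 ± 0.12 (adjusted p = 0.00734), with a rise of 0.86 ± 0.08 in KO-labelled cells and 0.35 ± 0.08 in WT cells. For Drp2 it was -0.43 ± 0.12 (adjusted p = 0.0222), with 79.4 ± 4.63 and 86.2 ± 4.59 CPM in KO DM and KO GM, and 103 ± 4.13 and 82.5 ± 9.24 CPM in WT DM and WT GM; this call ended in 8 of 22 alternatives (adjusted p up to 0.0899), among them without KO DM replicate 1 or 3, KO GM replicate 1 or 2, WT DM replicate 1 or 3 and WT GM replicate 1. The cause of these differences was not tested.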

How the results depend on the processing

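Over 23 alternatives (22 for the interaction), 25 of 35 results for single members kept their direction and their side of the threshold throughout, among them 13 of the 14 calls; the exception was Utrn in KO DM against WT DM. The number of called members was 6 in KO DM against KO GM, 5 in WT DM against WT GM, 1 in KO GM against WT GM and 2 in KO DM against WT DM. Without WT GM replicate 2 the third of these counts was 2, and without WT DM replicate 2 the last was 1; leaving out single libraries gave 1 to 2 in both. The interaction count was 0 in each alternative. Results that turned sign were all uncalled and near 0. On library totals alone, the Sgca interaction was 0.03 and Mapk14 in KO DM against WT DM 0.01. Without both GM replicate 3 libraries, Sspn in KO GM against WT GM was 0.04, and the interactions of Sgca, Sgcb and the companion B4gat1 were 0.01, -0.05 and 0.02. Leaving out single libraries gave -0.04 to 0.14 for Utrn in KO DM against KO GM, -0.05 to 0.20 for Sgcb and -0.13 to 0.06 for Sspn in KO GM against WT GM, and -0.03 to 0.06 for Dag1 and -0.04 to 0.02 for Mapk14 in KO DM against WT DM. For the interaction it gave -0.12 to 0.08 for Sgca, -0.11 to 0.14 for Sgcb and -0.02 to 0.13 for Pomgnt1. The cause of these shifts was not tested. Of 81 companion results, 62 kept direction and side throughout.

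Samples with the same replicate number were not paired by the data: correlations of their deviations from the group means ran from -0.09 to 0.19. With the number as a replicate block, 1 member result changed side, Utrn in WT DM against WT GM (0.22, adjusted p = 0.0113), which made 6 called members there. Depth limits Dmd, with at most 3 counts per library.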

Other observations

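The laminin alpha chains that dystroglycan can bind are described as shares of their summed level per kilobase, with no test. Lama4 and Lama5 held most of their summed RNA in every group. The Lama4 share was 46.5 ± 0.817% in KO DM, 53.3 ± 4.03% in KO GM, 32 ± 2.46% in WT DM and 35.3 ± 8.49% in WT GM, and that of Lama5 was 45.9 ± 1.04%, 41.3 ± 3.83%, 56 ± 3.15% and 58.3 ± 8.71% in the same groups (SD, n = 3 each). Lama2 held 5.84 ± 0.46%, 5.15 ± 0.303%, 9.74 ± 1.05% and 5.75 ± 0.305%. The order of Lama4 and Lama5 in the WT groups turned with the length used: per kilobase of the longest transcript Lama4 held 61.7%, 67.9%, 46% and 50.2% and Lama5 30.5%, 26.4%, 40.4% and 42.3% in KO DM, KO GM, WT DM and WT GM.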
